A study of Mus musculus with 6 samples.

Results

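Expression of 8 genes for transcription factors that mark the layers and projection neuron classes of the cerebral cortex was examined in young adult and old adult mice. The genes were taken by their symbols, with no threshold on their values, from the 55421 genes of the deposited tables. They were 3 genes of the upper layers (Cux1, Cux2 and Rorb) and 5 genes of the deep layers (Etv1, Fezf2, Bcl11b, Tbr1 and Foxp2). All 8 reached the minimum of 10 counts over the 6 libraries, as did 32905 genes in all. RNA-seq was done on microdissected cortex of males, 3 at 6 months (numbered 10, 11 and 17) and 3 at 24 months (numbered 2, 4 and 5). All were wild-type C57BL/6J mice that received isoflurane for anesthesia, and each library came from 1 mouse. The frozen cortex was powdered whole before the RNA was extracted, so that each library holds the RNA of every cortical layer and cell type. The question addressed was how gene expression in the cortex differs between these ages, here for upper and for deep layers.

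The neocortex is built of layers whose excitatory neurons differ in where they send their axons. Neurons of the upper layers mostly connect cortical areas with each other, whereas those of the deep layers send axons out of the cortex, those of layer 5 to the brainstem and spinal cord and those of layer 6 to the thalamus. These identities are set during development by transcription factors that restrain each other, such as Fezf2, which acts ahead of Bcl11b in neurons projecting to the spinal cord, and Tbr1, which holds Fezf2 down in neurons projecting to the thalamus. Many of these factors remain expressed in the adult cortex. Some are also used by other cells, for example Bcl11b and Foxp2 by the projection neurons of the striatum.

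In GRCm38 (GENCODE vM21) the genes on the minus strand were Cux1 (ENSMUSG00000029705.17) at chr5:136248135-136567490, Cux2 (ENSMUSG00000042589.18) at chr5:121856366-122050102, Rorb (ENSMUSG00000036192.15) at chr19:18930605-19111196, Fezf2 (ENSMUSG00000021743.6) at chr14:12342094-12348189 and Bcl11b (ENSMUSG00000048251.15) at chr12:107910403-108003602. The genes on the plus strand were Etv1 (ENSMUSG00000004151.17) at chr12:38779380-38870484, Tbr1 (ENSMUSG00000035033.15) at chr2:61802930-61814114 and Foxp2 (ENSMUSG00000029563.16) at chr6:14901349-15441977. Counts were taken over the exons of each gene, whose summed length ran from 3047 bases in Fezf2 to 20024 bases in Cux1.

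The libraries held 29495379 to 36494240 counts. At least 1 count was found on 33974 to 35651 genes at 6 months and on 40208 to 43561 genes at 24 months. Levels are given as CPM, the count of a gene relative to the size of its library, after TMM scaling, whose factors were 0.921 to 0.946 at 6 months and 1.04 to 1.10 at 24 months, and differences as log2 fold changes of 24 against 6 months. The median log2 fold change of the 15761 genes with a mean of at least 1 CPM was -0.14, and it was 0.048 with scaling by library totals alone, so that the direction of small differences depends on the scaling. Markers of the tissue were examined as mean TPM values (a level per transcript length). Camk2a and Nrgn of excitatory neurons had 1032 and 524, whereas the dopamine receptors Drd1 and Drd2 of the striatum had 2.75 and 0.309. Other genes of the striatal list of 9 were higher, up to 121 for Ppp1r1b and 137 for Penk.

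For 7 of the 8 genes, RefSeq gave the sequence before a transcription start (GRCm38.p6). The promoters of Cux2, Rorb, Fezf2 and Bcl11b are shown because Cux2 and Bcl11b stood out in the comparisons that follow, with Rorb and Fezf2 as a further gene of each layer group. Each is written 5′ to 3′ on the minus strand, on which all 4 genes lie, and is restricted to bases outside annotated exons. Capitals mark matches on either strand to motifs of general promoter factors and of basic helix-loop-helix factors. These were the GC box, whose letters are GGGCGG, the CCAAT box, named for its letters, and the E-box, which begins with CA and ends with TG around any pair of bases.
Cux2, chr5:122049852-122050015: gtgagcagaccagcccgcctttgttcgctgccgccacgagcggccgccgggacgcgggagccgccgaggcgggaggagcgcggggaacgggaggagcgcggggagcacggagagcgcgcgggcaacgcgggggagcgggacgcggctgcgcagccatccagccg
Rorb, chr19:19111197-19111446: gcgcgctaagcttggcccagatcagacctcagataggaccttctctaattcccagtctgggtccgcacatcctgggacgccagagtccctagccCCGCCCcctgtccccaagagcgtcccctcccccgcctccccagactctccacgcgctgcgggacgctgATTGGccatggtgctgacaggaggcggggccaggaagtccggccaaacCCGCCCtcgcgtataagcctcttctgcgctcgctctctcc
Fezf2, chr14:12345960-12346115: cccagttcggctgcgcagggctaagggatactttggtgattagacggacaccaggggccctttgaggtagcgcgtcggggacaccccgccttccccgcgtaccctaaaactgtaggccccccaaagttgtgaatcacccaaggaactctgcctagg
Bcl11b, chr12:108003603-108003664: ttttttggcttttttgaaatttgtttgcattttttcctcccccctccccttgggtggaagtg
Over the whole window of 250 bases before the start, the Cux2 promoter had a GC content of 80.0% with 40 CpG dinucleotides, and the Rorb promoter had 66.0% with 18. For both genes the table also held a promoter farther inside the gene, 2277 and 110079 bases from its start, and these had 55.2% with 3 and 39.2% with 4, each with 2 E-boxes and no GC box. The windows of Fezf2 and Bcl11b had 61.2% with 14 and 44.8% with 9, against medians of 52.4% and 6 over the 32851 promoters of the table. The transcription start of the Fezf2 window lay inside the annotated gene, 2324 bases from the gene's start. For the stretches shown of Bcl11b, Cux2 and Rorb this distance was 188, 251 and 0 bases. The Rorb window held 2 GC boxes and 1 CCAAT box, the Fezf2 window 1 GC box and the Cux2 window 1 E-box, those of Fezf2 and Cux2 outside the stretches shown. Of all promoters, 32.7% held a GC box, 33.8% a CCAAT box and 66.2% an E-box. These matches describe the letters of the windows, and no binding was measured.

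Of the upper layer genes, Cux2 was the one whose mice did not overlap between the ages. Cux2, a homeobox factor of upper layer neurons that regulates their dendrites and spines, was at 161, 112 and 154 CPM in the 6-month mice 10, 11 and 17 and at 255, 164 and 165 CPM in the 24-month mice 2, 4 and 5. All 3 old mice were above all 3 young mice, with mouse 2 the highest by far and mice 4 and 5 just above the young mouse 10. The mean was 142 ± 26.8 CPM at 6 months and 195 ± 52.1 CPM at 24 months (SD, n = 3 mice each). The log2 fold change was 0.45 (SE 0.19), and it did not pass an FDR of 10% (adjusted p = 0.142, quasi-likelihood test of edgeR). Without mouse 2 it was 0.22. Of all genes tested, 20.0% had all old mice above all young mice, and of the genes of at least 1 CPM, 5.32% had. In whole tissue, fewer or more cells of a type and less or more RNA per cell cannot be told apart.

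The paralog Cux1, which shares the homeobox and cut domains of Cux2 and is found in upper layer neurons and in many other cells, was at 68.4, 81.2 and 76.3 CPM at 6 months and at 58.4, 58.5 and 87.5 CPM at 24 months. The old mice 2 and 4 were below every young mouse, and mouse 5 was above every young mouse. The log2 fold change was -0.14 (SE 0.16), and 0.041 with library totals alone (adjusted p = 0.556 and 0.873, edgeR). Rorb, a nuclear receptor of layer 4 neurons that receive thalamic input, was at 280.4, 178 and 224 CPM at 6 months and at 149.6, 153 and 266 CPM at 24 months. Rorb had the pattern of Cux1 in the old mice, low in mice 2 and 4 and high in mouse 5, and the ages overlapped (log2 fold change -0.26, SE 0.23, adjusted p = 0.450, edgeR). Without mouse 5, Cux1 (-0.36, adjusted p = 0.0546) and Rorb (-0.59, adjusted p = 0.0554) passed an FDR of 10% in edgeR as lower, and Cux2 passed as higher (0.56, adjusted p = 0.0931), in a fit that called 25.6% of all genes.

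**Figure D1:**
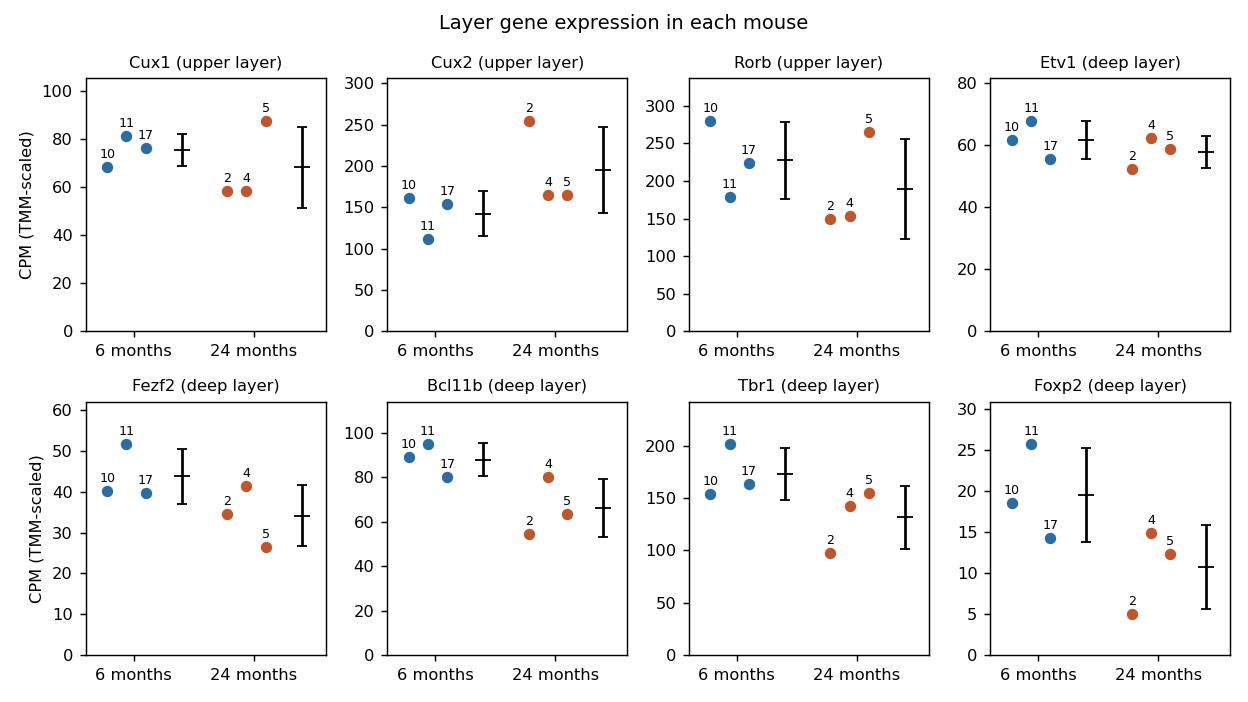
Level of each of the 8 layer genes in CPM (y axis, from 0) in the 6-month mice (blue) and the 24-month mice (orange), each point 1 mouse with its number and the bars the mean ± SD of 3 mice. Cux2 is the panel in which all 24-month mice (164 to 255 CPM) lie above all 6-month mice (112 to 161 CPM), and mouse 11 is the highest of all mice in each of the 5 deep layer panels.

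The log2 fold changes of the 5 deep layer genes were all below 0 with TMM scaling, from -0.096 for Etv1 to -0.87 for Foxp2, and with library totals alone that of Etv1 was above 0 (0.095). Bcl11b passed the test. Bcl11b (Ctip2), a zinc finger factor needed for the outgrowth of corticospinal axons, was at 89.3, 95.0 and 80.0 CPM at 6 months and at 54.4, 80.3 and 63.7 CPM at 24 months. The old mice 2 and 5 were below every young mouse, whereas mouse 4 lay just above the young mouse 17. The mean fell from 88.1 ± 7.57 to 66.1 ± 13.1 CPM (SD, n = 3 mice each), and the log2 fold change was -0.41 (SE 0.14, adjusted p = 0.0914, quasi-likelihood test of edgeR). It was thus 1 of 8 layer genes called at 10% FDR, where 18.4% of all genes tested were called, 10.0% as higher and 8.33% as lower. Of the genes of at least 1 CPM, 19.7% were called, 2.43% as higher and 17.3% as lower. At the 1% FDR used in the study 0 of the 8 and 0.0% of all genes passed in this test, and 0 of the 8 passed in the likelihood ratio test of edgeR or in DESeq2, which called 5.18% and 0.836% of all genes. At an unadjusted p under 0.05 there were 4 of 8 (Cux2, Bcl11b, Tbr1 and Foxp2), against 30.7% of all genes. The call of Bcl11b was lost with the Wald test of DESeq2 (adjusted p = 0.128), which called 11.2% of all genes, with library totals alone (adjusted p = 0.303, edgeR), which called 13.5%, and with each mouse left out in turn (adjusted p = 0.113 to 0.295, edgeR). The log2 fold change without a mouse was -0.57 to -0.28, and 3 of these 6 fits called at most 1 of all genes.

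Foxp2, a forkhead factor of layer 6 neurons projecting to the thalamus, had the lowest level and the largest difference of the 8 genes. It was at 18.6, 25.7 and 14.3 CPM in the young mice and at 4.96, 14.8 and 12.3 CPM in the old mice. Mouse 2 was far below all others, while mouse 4 was above the young mouse 17. The mean was 19.5 ± 5.76 CPM at 6 months and 10.7 ± 5.12 CPM at 24 months (log2 fold change -0.87, SE 0.34, adjusted p = 0.126, edgeR). Without mouse 2 it was -0.51 (SE 0.23, adjusted p = 0.210, edgeR). With the likelihood ratio test of edgeR, which called 22.8% of all genes, the adjusted p on all 6 mice was 0.0812.

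Tbr1, a T-box factor that gives neurons of layer 6 their identity, was at 154, 202 and 163 CPM at 6 months and at 97.6, 142 and 155 CPM at 24 months. The old mice 2 and 4 were below every young mouse, and mouse 5 was just above the lowest of them (log2 fold change -0.40, SE 0.17, adjusted p = 0.146, edgeR). Fezf2, the zinc finger factor that directs layer 5 neurons to project below the cortex, was at 40.1, 51.7 and 39.6 CPM at 6 months and at 34.6, 41.3 and 26.6 CPM at 24 months. In Fezf2 mouse 5 and not mouse 2 was the lowest (log2 fold change -0.36, SE 0.17, adjusted p = 0.177, edgeR). Etv1, an Ets factor of layer 5 neurons, was at 61.5, 67.8 and 55.4 CPM at 6 months and at 52.1, 62.3 and 58.5 CPM at 24 months. The old mice of Etv1 lay within or close to the range of the young mice (log2 fold change -0.096, SE 0.11, adjusted p = 0.579, edgeR).

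**Figure D2:**
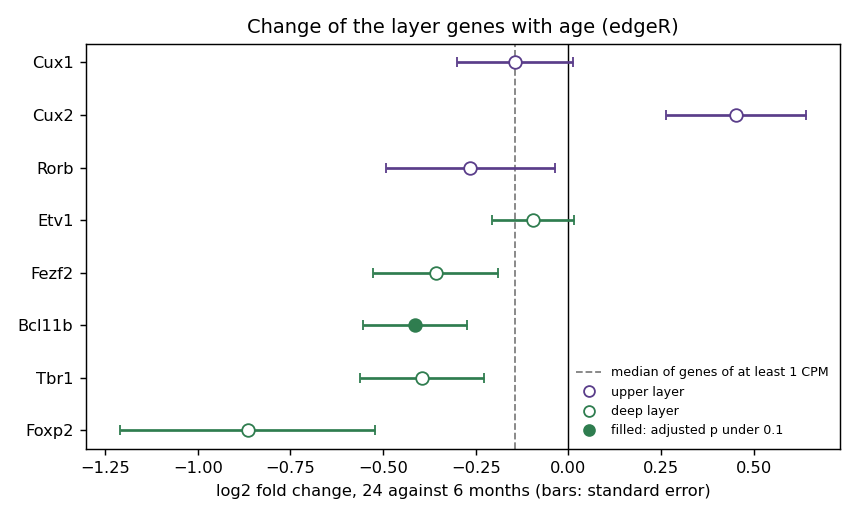
Log2 fold change of 24 against 6 months (x axis) of the 8 layer genes (y axis) with the standard error of the edgeR fit as bars, purple for upper and green for deep layers, filled where the adjusted p is under 0.1. Only Bcl11b (-0.41) is filled, Cux2 (0.45) is the single gene right of 0, and the dashed line marks the median of the genes of at least 1 CPM (-0.14).

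Set against that median of -0.14, the difference of Cux2 was 0.59 above it, that of Etv1 0.048 above it, and those of Foxp2, Bcl11b, Tbr1, Fezf2 and Rorb were -0.72, -0.27, -0.25, -0.22 and -0.12 from it. Each gene was also taken relative to the mean log2 CPM of 6 excitatory neuron genes of the same library, a measure chosen after the values were seen. Within a library the same amount is subtracted from every gene, so that the order of the differences cannot change. On this scale Cux2 stood at -0.40 at 6 months and 0.22 at 24 months, a difference of 0.62, and again all old mice were above all young mice. Foxp2 differed by -0.78, Bcl11b by -0.25, Tbr1 by -0.23, Fezf2 by -0.19 and Rorb by -0.11, each with overlapping ages. Cux1 (0.014) and Etv1 (0.087) were near 0.

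The libraries of mouse 11 and mouse 2 held most of the extremes. The young mouse 11 was the highest of all 6 for 5 of 5 deep layer genes and the lowest for Cux2. The old mouse 2 was the lowest for 4 of 5 deep layer genes and for Cux1 and Rorb, and the highest for Cux2. The coefficient of variation was larger at 24 than at 6 months for 7 of the 8 genes, for example 24.6% against 8.57% for Cux1 and 47.9% against 29.6% for Foxp2, and smaller for Etv1 (8.94% against 10.1%). The share of all genes with a larger spread was not counted. Outside the layer genes the SD was larger at 24 months for Gad1 (87.8 against 35.4 CPM) and smaller for Tubb3 (2.61 against 11.5 CPM). The study described gene expression within the 24-month group as more variable in general.

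Compared per transcript length, the order of the levels in the young cortex was Tbr1, Rorb, Fezf2, Cux2, Bcl11b, Etv1, Cux1 and Foxp2, from 111 ± 16.7 TPM down to 4.20 ± 1.26 TPM. Of the neighbours in this order, Tbr1 lay apart from Rorb (72.2 ± 15.8 TPM), and Bcl11b (38.2 ± 3.35 TPM), Etv1 (16.3 ± 1.69 TPM), Cux1 (13.2 ± 1.22 TPM) and Foxp2 lay apart from each other. From Rorb through Fezf2 (50.6 ± 8.14 TPM) and Cux2 (49.7 ± 9.12 TPM) to Bcl11b, each gene overlapped with its neighbour. In the old cortex Cux2 stood second, with 73.5 ± 19.7 TPM after Tbr1 with 91.3 ± 20.8 TPM, and before Rorb with 65.1 ± 22.7 TPM. Neighbours among these overlapped, and so did Rorb with Fezf2 (42.7 ± 9.23 TPM) and Fezf2 with Bcl11b (31.0 ± 6.13 TPM). Bcl11b lay apart from Etv1 (16.5 ± 1.46 TPM), which overlapped with Cux1 (13.0 ± 3.19 TPM), and Cux1 lay apart from Foxp2 (2.49 ± 1.19 TPM).

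Upper were compared with deep layer genes as log2 ratios within each library, which do not depend on the scaling between libraries and were given no test. The mean log2 CPM of the 3 upper minus that of the 5 deep layer genes was 1.34, 0.74 and 1.39 in the young mice 10, 11 and 17 and 1.92, 1.09 and 1.79 in the old mice 2, 4 and 5. The means were 1.15 ± 0.36 and 1.60 ± 0.45, a difference of 0.45, and the ages overlapped through mice 4, 10 and 17. With TMM scaling, the mean of the deep layer genes differed by -0.45 between the ages, whereas that of the upper layer genes differed by -0.0077. This upper mean combined the higher Cux2 with the lower Cux1 and Rorb. Unlike the ratio, these separate means depend on the scaling. With library totals alone, the log2 fold changes of the upper layer genes were 0.041 (Cux1), 0.65 (Cux2) and -0.078 (Rorb). Those of the deep layer genes then ran from -0.68 (Foxp2) to 0.095 (Etv1). Without Cux2, a choice made after the values were seen, the upper to deep difference was 0.22, and with each mouse left out in turn it ran from 0.24 without the young mouse 11 to 0.70 without the old mouse 4 for the full lists.

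Of the 15 pairs of an upper with a deep layer gene, 13 had a higher mean ratio at 24 months, and 3 had all old mice above all young mice. The latter were Cux2 to Bcl11b, to Tbr1 and to Foxp2, with log2 differences of 0.87, 0.85 and 1.40. The ratio of Cux2 to Bcl11b was 0.85, 0.23 and 0.95 on the log2 scale in the young mice and 2.23, 1.03 and 1.37 in the old mice. All 3 pairs contain Cux2, and pairs that share a gene are not independent. The 2 pairs with a lower mean ratio were those of Cux1 and Rorb with Etv1 (-0.073 and -0.20). Among the deep layer genes, the ratio of Etv1 to Bcl11b was higher by 0.33 and that of Etv1 to Foxp2 by 0.87 at 24 months, with all old above all young mice in both, whereas Bcl11b to Tbr1 differed by -0.015. The share of all gene pairs with a higher ratio, or with ages that do not overlap, was not counted.

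**Figure D3:**
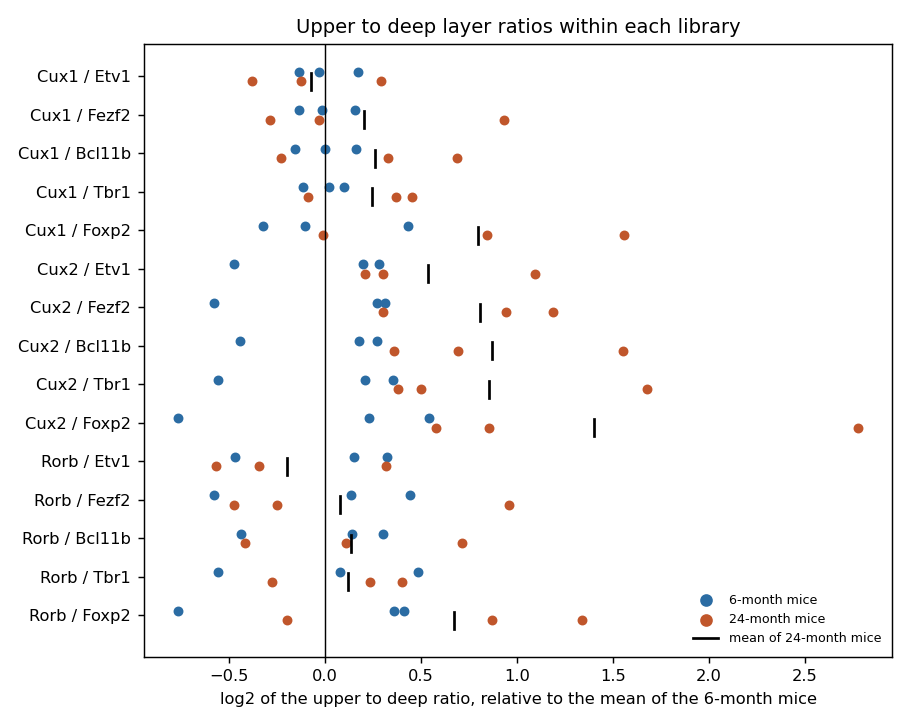
Log2 ratio of each upper to each deep layer gene within a library, less the mean of the 6-month mice (x axis), for the 15 pairs (y axis), with 6-month mice in blue, 24-month mice in orange and the mean of the 24-month mice as a black tick. In 3 of the pairs with Cux2 all orange points lie right of the blue points, while the pairs of Cux1 and Rorb overlap throughout.

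Other genes of the layers were read from lists of known layer markers. Of 9 other upper layer genes, 0 were higher and 1 was lower at 10% FDR in edgeR, where 2.43% and 17.3% of all genes of at least 1 CPM were called, and the median log2 fold change was -0.16 (0.027 with library totals alone). At an unadjusted p under 0.05 there were 2, and the likelihood ratio test and DESeq2 also called 0 as higher. With library totals alone 0 were called in either direction. The called gene was Mdga1, an adhesion molecule of upper layer neurons, which fell from 3.63, 4.40 and 4.86 CPM to 3.05, 2.69 and 2.998 CPM (log2 fold change -0.56, adjusted p = 0.0736, edgeR). Rasgrf2, a guanine nucleotide exchange factor, was the next lowest (-0.29, adjusted p = 0.179, edgeR). At the other end were the secreted Wnt agonist Rspo1 (0.82, adjusted p = 0.140, edgeR) and the LIM homeobox factor Lhx2 (0.40, adjusted p = 0.396, edgeR).

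Of 19 other deep layer genes, 0 were higher and 4 were lower at 10% FDR, 17 had a log2 fold change below 0, and the median was -0.41 (-0.23 with library totals alone). Of the genes of at least 1 CPM, 17.3% were called as lower. The median log2 fold change of all genes of at least 1 CPM was -0.14, so that most of them were also below 0. At an unadjusted p under 0.05 there were 9, against 30.7% of all genes, the likelihood ratio test called 3 and DESeq2 called 1 as lower, and both called 0 as higher. With library totals alone 0 were called in either direction. The 4 were Bcl6, a transcriptional repressor (-0.58, adjusted p = 0.0635, edgeR), Rbp4, a retinol carrier by which layer 5 neurons are often marked (-0.39, adjusted p = 0.0893), Parm1, a membrane mucin (-0.35, adjusted p = 0.0971), and Ldb2, a partner of LIM domain factors (-0.34, adjusted p = 0.0993). In each of them all old mice were below all young mice, as in 5 of the 19 genes, while 32.5% of all genes of at least 1 CPM had this pattern. Bcl6 was at 7.20, 9.13 and 8.58 CPM in the young mice and at 4.65, 6.24 and 5.76 CPM in the old mice. Rbp4 was at 34.0, 40.6 and 38.5 CPM in the young mice and at 31.4, 31.0 and 23.8 CPM in the old mice. The lowest log2 fold changes were those of Nxph4, a neurexin ligand (-1.10), and Syt6, a synaptotagmin of layer 6 neurons (-0.98), which did not pass (adjusted p = 0.180 and 0.195, edgeR). The highest were those of Tshz2 (0.040) and Deptor (0.0048). The summed CPM of the 19 genes was 733 to 830 at 6 months and 544 to 654 at 24 months. That all old mice were below all young mice in a sum was not particular to deep layer genes. It also held for the excitatory genes (2940 to 3267 against 2377 to 2749) and general neuronal genes (8387 to 9841 against 6183 to 8113) described below. The sum of the 9 other upper layer genes overlapped (527 to 631 against 494 to 559).

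Syt6 repeated the pattern of Foxp2, with 32.9, 47.7 and 17.3 CPM in the young mice 10, 11 and 17 and 5.24, 24.3 and 19.9 CPM in the old mice 2, 4 and 5. Further layer 6 genes, named after their values were seen, were the neurotensin receptor Ntsr1 with 9.44, 15.4 and 6.17 CPM against 4.93, 7.55 and 5.82 CPM, and the cofactor Zfpm2 with 22.0, 26.8 and 14.1 CPM against 9.03, 20.6 and 11.9 CPM. In all of them mouse 11 was the highest and mouse 2 the lowest, and none passed 10% FDR in edgeR. These extremes were shared by 7 of the 19 other deep layer genes and by 0 of the 9 other upper layer genes. Other deep layer genes differed from them: Sox5 was highest in mouse 5 (64.3 CPM), Cplx3 was lowest in mouse 5 (10.3 CPM), and Nr4a2 was second highest in mouse 2 (21.2 CPM). Outside the layer lists, mouse 11 was also the highest and mouse 2 the lowest in Gad1, Penk, Tac1 and Slc17a6, but not in Nrgn or Sst. The share of all genes with these extremes was not counted, so they are not shown to be particular to deep layer genes.

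**Figure D4:**
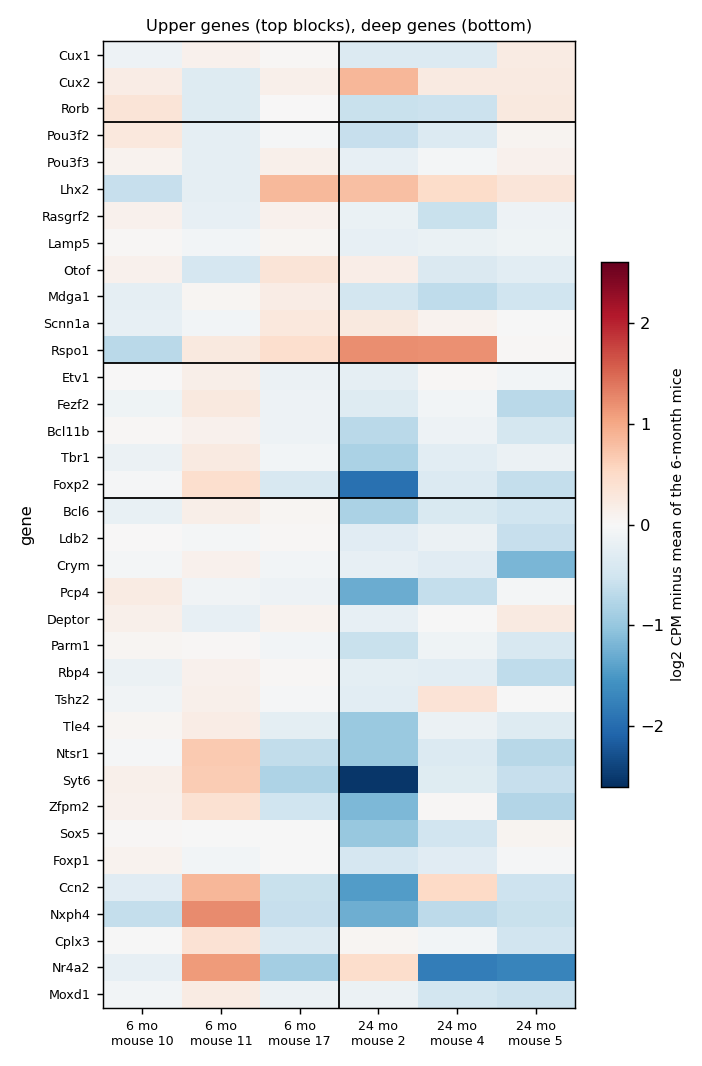
Log2 CPM of upper layer genes (the 3 genes described and 9 others) and deep layer genes (the 5 described and 19 others) in each mouse, less the mean of the 6-month mice, red for higher and blue for lower. Blue prevails at 24 months in the deep blocks, where 17 of the 19 other genes had a log2 fold change below 0, and the darkest cells are Syt6 and Foxp2 of mouse 2. The median over all genes of at least 1 CPM was also below 0 (-0.14).

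The closest relatives of the 8 genes were read as a further list of 9 paralogs, of which Foxp1 is also on the list of deep layer genes. At 10% FDR 1 was lower and 0 were higher in edgeR, 3 passed an unadjusted p under 0.05, and the likelihood ratio test called 1 as higher and 1 as lower, and DESeq2 called 0 as higher and 1 as lower. In edgeR, 17.3% of the genes of at least 1 CPM were called as lower and 2.43% as higher. Of all genes, 30.7% passed an unadjusted p under 0.05. Fezf1 was the only 1 of the 9 with a log2 fold change above 0 in the main fit. The called gene was Etv5, an Ets factor induced by growth factor signalling, which fell from 106, 118 and 106 CPM to 71.6, 82.2 and 71.0 CPM (log2 fold change -0.55, adjusted p = 0.0518, edgeR), while Etv1 and Etv4 had log2 fold changes of -0.096 and -0.00074. Eomes, the T-box relative of Tbr1, had 3, 29 and 2 counts in the young and 9, 7 and 8 counts in the old mice, with mouse 11 standing alone. Fezf1 had 0, 1 and 1 counts in the young and 5, 3 and 3 counts in the old mice, too few for a fold.

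Reads on genes that are nearly silent in the young cortex were more frequent in the old libraries. For this measure, CPM was taken relative to library totals alone, without TMM scaling. Protein-coding genes with at most 2 counts in 2 young libraries had 0.0112, 0.0137 and 0.0134 CPM per exonic kb in the young mice and 0.0699, 0.0528 and 0.0330 CPM per exonic kb in the old mice 2, 4 and 5, a ratio of means of 4.06. Multiplied by the exonic length of each layer gene, this level equalled at most 2.18% of the CPM of each gene other than Foxp2 in each library. For Foxp2, with 16346 exonic bases and the lowest level, it equalled 0.923% to 1.64% of the CPM at 6 months, and 20.9%, 5.45% and 4.24% in the old mice 2, 4 and 5. This signal was thus highest in the library in which Foxp2 was lowest.

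Marker genes of other cells and regions were read beside the layer genes. At 10% FDR in edgeR, 3 of 6 general neuronal genes were lower (Syt1, Tubb3 and Stmn2, with log2 fold changes of -0.40, -0.36 and -0.45) and 2 of 6 excitatory genes (Neurod6 and Camk2a, -0.44 and -0.28), with medians of -0.34 and -0.15 over the lists, while 17.3% of all genes of at least 1 CPM were lower. Of the 8 interneuron genes 0 were called, 0 had an unadjusted p under 0.05, and DESeq2 and the likelihood ratio test also called 0. Of the 9 striatal genes 3 were lower (Penk, Tac1 and Rarb, -0.36 to -0.57), and the summed CPM of the 9 was 252 to 271 at 6 months and 183, 213 and 245 in the old mice 2, 4 and 5. All old mice were below all young mice in this sum. The same held for the summed CPM of the 5 deep layer genes, 353 to 442 at 6 months and 244 to 341 at 24 months. Of thalamic genes 1 of 4 was lower (Slc17a6, -1.03), of hippocampal genes 1 of 5 was higher (Dsp, 1.86), of astrocyte genes 1 of 5 was higher (Gfap, 0.69), and of microglial genes 1 of 5 was higher (Tmem119, 0.34) and 1 lower (Csf1r, -0.34). Dsp had few counts, 7, 9 and 2 in the young and 24, 25 and 19 in the old mice, at most 0.740 CPM. Log2 fold changes were above 0 for 3 of the 4 thalamic genes, and below 0 for 3 of the 5 hippocampal and 3 of the 5 astrocyte genes. Of the 4 oligodendrocyte, 2 precursor and 4 endothelial genes 0 were called, 0 had an unadjusted p under 0.05, and both other tools called 0. The most abundant genes of these lists that did not pass (Nrgn, Snap25, Sst, Gad1, Ppp1r1b, Spink8, Prox1, Tcf7l2, Aldoc, Slc1a3, Mbp, Cnp, Pdgfra, Cspg4, P2ry12, C1qa, Cldn5 and Slco1c1) lay between -0.34 (Gad1) and 0.20 (Cspg4). None of the marker genes was at 0 in a library. With library totals alone 1 general neuronal gene and 0 genes of the other marker lists were called as lower, and 2 astrocyte genes and 1 each of the thalamic, hippocampal, microglial and precursor genes were called as higher. The part of striatal RNA and of the neuronal share in the results of the layer genes was not tested.

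The summed CPM of the 4 oligodendrocyte genes (Mbp, Mog, Mag and Cnp, genes of myelin) was 1669, 2134 and 1394 in the young mice 10, 11 and 17 and 730.1, 1769 and 2394 in the old mice 2, 4 and 5. Myelin is denser in the deep layers and in the white matter beneath them. The young mice had the same order in this sum and in Foxp2, and mouse 2 was the lowest in both. Mouse 5 had the highest sum and a Foxp2 level below all young mice. The part of the oligodendrocyte content in the levels of the deep layer genes was not tested.

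**Figure D5:**
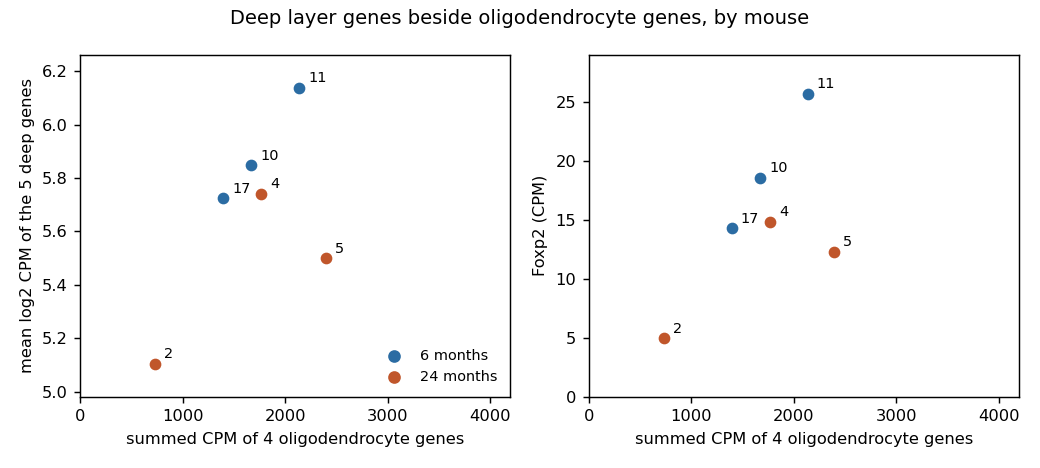
Mean log2 CPM of the 5 deep layer genes (left, y axis) and CPM of Foxp2 (right, y axis) against the summed CPM of 4 oligodendrocyte genes (x axis), 1 point for each mouse with its number, blue for 6 and orange for 24 months. Mouse 2 (730.1 summed CPM, 4.96 CPM of Foxp2) is the lowest on both axes, while mouse 5 (2394 summed CPM, 12.3 CPM of Foxp2) has the highest sum with a low Foxp2 level.

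For each layer gene, the gene of most like profile was sought among the 15761 genes of at least 1 CPM, as the smallest root mean square difference of log2 CPM after centring over the 6 libraries. A small difference over 6 libraries, chosen among so many genes, is a description only. The closest to Foxp2 was Slc17a6, the vesicular glutamate transporter of thalamic and other subcortical neurons (0.148), which fell from 15.9, 19.9 and 12.0 CPM to 3.58, 9.48 and 10.3 CPM (log2 fold change -1.03, adjusted p = 0.0825, edgeR). It was the only gene of the thalamic list of 4 with a log2 fold change below 0, and 3 were above 0. The closest to Bcl11b was Ccdc160 (0.0407), to Tbr1 Elovl7 (0.0514), to Fezf2 Dhrs13 (0.0534) and to Etv1 Zfp90 (0.0314). The closest to Cux1 was Gm8098 (0.0485), to Cux2 Gm37274 (0.0964) and to Rorb Rbm45 (0.0830). Between the 8 genes themselves, Bcl11b and Tbr1 were the most alike (0.175) and Cux2 and Foxp2 the least (1.06). Cux1 was closer to Rorb (0.279) than to its paralog Cux2 (0.517).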

How the data were processed

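Cortex of 6 male mice was sequenced, 3 at each age. The authors trimmed reads with Trim Galore 0.6.4, mapped them to GRCm38 with STAR 2.7.3a and counted them on exons with featureCounts of Subread 2.0.0. A count table and a TPM table were deposited for each mouse. The methods name fractional counting of multiply mapped reads, yet the deposited counts were whole (100.0%), and they were tested as they are, and the TPM values, which the authors computed from counts and exonic lengths, were used for orders of levels. The members and lists were chosen with earlier results of these data known.

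Counts, for genes whose sum over all mice reached 10, were scaled by TMM and tested with the quasi-likelihood test of edgeR 4.0.16 (R 4.3.3) without covariates, with Benjamini-Hochberg adjustment over all genes. The study's FDR was 1%, at which it did report genes with edgeR. The level of 10% was added because 0 genes passed 1% in the quasi-likelihood test. In the likelihood ratio test 1703 genes passed 1%, and 227 in DESeq2. Alternatives were the likelihood ratio test, DESeq2 1.42.0, its size factors, library totals, other filters and each mouse left out. Log2 CPM had a prior count of 2. The fit was tested on simulated data. With 29495379 to 36494240 counts per mouse, the layer genes had from 161 (Foxp2, mouse 2) to 9042 counts (Rorb, mouse 5).

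Named are the 8 genes, the genes of the other layer and paralog lists that passed 10% FDR or had the 2 largest or 2 smallest log2 fold changes, the genes of the marker lists that passed and their 2 most abundant by mean TPM, and for each layer gene the 1 gene of most like profile. Drd1, Drd2, Ntsr1, Zfpm2, Sox5, Cplx3, Nr4a2 and the whole oligodendrocyte list were named beyond this rule, after their values were seen. A few genes of the lists are not reported here, and counts and sums leave them out. Positions and exonic lengths are those of GENCODE vM21, in which 55240 of 55421 identifiers were found, and the implied length of 98.8% of 13752 well counted genes lay within 1% of it. The study names a later GENCODE release. No strand option of featureCounts is named and its default ignores strand, so reads of Cux1 and of the overlapping antisense gene Gm16599 (0 to 4 counts) cannot be told apart.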

Additional observations from a re-analysis of the deposited data

How the results depend on the processing

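No paired analysis was possible because the mouse numbers differ between the ages and tie no young to an old mouse. The directions of Cux2, Rorb, Fezf2, Bcl11b, Tbr1 and Foxp2 held in all 12 alternatives run. Cux1 reversed to 0.041 with library totals alone and to 0.014 relative to excitatory genes, and Etv1 reversed to 0.095 with library totals, to 0.016 with the filterByExpr filter, and to 0.087 relative to excitatory genes, and ran from -0.16 to 0.017 with a mouse left out (0.017 without the young mouse 11). Among the 8 genes, the number called higher, 0 in the result given, was 1 (Cux2) with library totals and 0 to 1 with a mouse left out. The number called lower, 1 in the result given, was 2 with the likelihood ratio test (Bcl11b and Foxp2), 0 with DESeq2, its size factors, library totals, filterByExpr or no filter beyond 1 count, and 0 to 3 with a mouse left out, the 3 being Cux1, Rorb and Tbr1 without the old mouse 5. Of the other upper layer genes, 1 was lower in the result given, 0 with library totals, filterByExpr and no filter, and 0 to 2 with a mouse left out (2 without the old mouse 5), where 0 to 1 were higher. Of the other deep layer genes, 1 was lower with DESeq2, 2 with its size factors, 0 with library totals and filterByExpr, 1 with no filter, and 0 to 4 with a mouse left out. Over all genes, 6040 passed 10% FDR, 7498 with the likelihood ratio test, 3048 with DESeq2, 5530 with its size factors, 4439 with library totals, 1538 with filterByExpr, 4014 with no filter, and with a mouse left out 0 (young mouse 10 or old mouse 4), 1 (young 11), 176 (old 2), 2476 (young 17) and 7998 (old 5). The cause of these differences was not tested. The lowest count of a layer gene was 161 (Foxp2, old mouse 2), and 3 mice per age limit every comparison.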
